A study of Rattus norvegicus with 18 samples.

Results

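Htr3b (ENSRNOG00000006920) is 1 of the 26172 Ensembl genes listed in each table of an RNA-seq study of the rat L5 dorsal root ganglion (DRG) after nerve injury. It was chosen by its measured fall in injured ganglia, so its difference between the groups is described here and not tested. The injured rats were male Wistar rats whose L5 spinal nerve was cut (spinal nerve transection, SNT) and whose L5 DRG was taken 7 days later. The controls were L5 DRG of naive Wistar rats, which had no operation, so surgery without nerve section is not represented. Each of the 3 SNT and 3 naive libraries was made from poly(A) RNA of 4 pooled rats and sequenced in 3 runs named for their approximate read number (17 M, 25 M and 50 M). The runs are technical replicates of the same 6 libraries, so n = 3 per group at every depth, and the spread within a group is that between pools of different animals.

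Htr3b encodes the B subunit of the ionotropic serotonin receptor, a cation channel in the cell membrane that serotonin opens and the only serotonin receptor class that is itself an ion channel. The A subunit, encoded by Htr3a, can form channels alone, whereas the B subunit needs the A subunit to reach the membrane and changes the conductance of the mixed channel. In the DRG these receptors are known from a subset of sensory neurons, where serotonin released in damaged tissue can depolarise the nerve ending. Values of Htr3a are not analysed here, because its identifier was not paired with a symbol in the tables used. The study itself lists Htr3a among the genes lower after SNT, by RNA-seq and by exon arrays.

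For orientation on the gene itself, the window around its annotated start is shown, from 250 bases before to 50 bases after it, as RefSeq gives it on the rat assembly GRCr8 (chr8:58204890-58205189, minus strand). Its neighbour in that annotation is Htr3a. Capitals mark matches, on either strand, to an E-box (CANNTG) or a GC box (GGGCGG).
Htr3b promoter: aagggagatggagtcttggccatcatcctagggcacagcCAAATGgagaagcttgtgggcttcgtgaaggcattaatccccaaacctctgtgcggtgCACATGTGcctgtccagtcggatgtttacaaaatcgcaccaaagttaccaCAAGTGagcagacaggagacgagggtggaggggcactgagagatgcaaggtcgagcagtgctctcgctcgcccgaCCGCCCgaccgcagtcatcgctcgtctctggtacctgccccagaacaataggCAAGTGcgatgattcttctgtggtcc
The window holds 5 E-box matches, of which 1 pair overlaps, and 1 GC box. At least 1 E-box match is present in 72.1% and a GC box in 33.1% of 33469 rat promoter windows of the same length. AP-1 (TGANTCA, in 7.33% of windows), CRE (TGACGTCA, 1.83%), its shorter core (TGACG, 21.2%) and TATA box (TATAAA, 14.2%) letters are not in this window. GC content was 56.0%, against a median of 51.7% over all windows. Nothing in the study measured binding or chromatin here, so these matches describe the sequence alone.

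The values are counts of uniquely placed exonic reads per gene, divided by the authors' size factor for the library (normalized counts). Library totals of such reads at 50 M were 15000789 to 17480115 in SNT and 18588873 to 19031166 in naive libraries, so that every SNT library was shallower than every naive one before scaling. At 17 M the totals were 4968448 to 6154543 in SNT and 5298078 to 6058429 in naive libraries, and at 25 M 8319112 to 9758888 and 9051832 to 9951906. Products of sensory neurons were abundant in the naive libraries, with at least 186814 normalized counts of Nefh and 15969 of Calca in each. A single library stood apart. Over the 492 other genes with a naive mean of at least 100 whose mean in SNT replicates 2 and 3 was at most 25% of naive at 50 M, SNT replicate 1 lay strictly between those 2 libraries and all naive libraries in 489, with a median of 44.1% of the naive mean (quartiles 38.2% and 49.4%). This selection used the other 2 SNT libraries and was made after the values were seen. With genes selected on the mean of all 3 SNT libraries instead, SNT replicate 1 lay between in 258 of 260. With the roles changed, SNT replicate 2 lay between in 1 of the 137 genes selected on SNT replicates 1 and 3, and SNT replicate 3 in 0 of the 152 selected on SNT replicates 1 and 2. The sources used here do not say why SNT replicate 1 stood apart, so it is not known whether its pool represents the injury as the others do. The group mean and fold change of Htr3b in SNT rest on this library, and results are therefore given for each SNT library and also without it.

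In naive DRG, Htr3b was well covered by reads. At 50 M the naive libraries held 2346, 2662 and 2201 normalized counts of Htr3b, from 2371, 2649 and 2296 reads. The SNT libraries held 644, 42.4 and 41.5 normalized counts, from 656, 39 and 44 reads. The groups did not overlap: the lowest naive library was 3.42 times the highest SNT library. Every SNT library was below every naive library in 31.3% of the 17930 genes tested at this depth, and since Htr3b was chosen for its fall, nothing is read from its being among them.

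SNT replicate 1 kept an intermediate level of Htr3b and SNT replicates 2 and 3 a trace. SNT replicate 1 was at 26.8% of the naive mean (95% exact Poisson interval 24.8% to 28.9%). SNT replicate 2 was at 1.76% (1.254% to 2.41%) and SNT replicate 3 at 1.73% (1.26% to 2.32%). These intervals cover counting error only. The intervals of SNT replicates 2 and 3 overlapped, while SNT replicate 1 was 15.3 times their mean. Among the naive libraries the interval of replicate 2 (2562 to 2765 normalized counts) lay above those of replicate 1 (2253 to 2443) and replicate 3 (2112 to 2293), and those of replicates 1 and 3 overlapped.

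**Figure D1:**
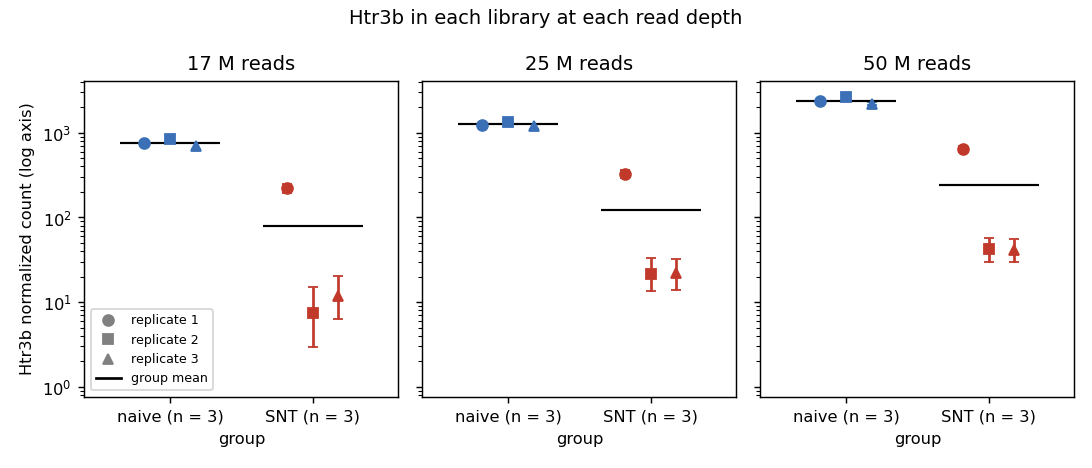
Normalized count of Htr3b on a log axis in the 3 naive (blue) and 3 SNT (red) libraries at each of the 3 depths. Points are libraries with 95% exact Poisson intervals, horizontal lines are group means, and at each depth SNT replicate 1 sits between the naive libraries and SNT replicates 2 and 3.

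The mean at 50 M was 2403 ± 236 normalized counts in naive and 243 ± 347 in SNT libraries (SD, n = 3 each), a ratio of SNT over naive of 0.101, or 9.91-fold lower, and a log2 ratio of −3.31. The SD in the SNT group exceeded its mean, because SNT replicate 1 supplied most of that mean. Without SNT replicate 1 the SNT mean was 1.75% of naive, 57.3-fold lower, with a log2 ratio of −5.84. Averaged on the log2(normalized count + 1) scale, where each library has equal weight, the difference was −4.50. The size of the fall thus depended on how this library was weighed.

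The other runs of the same libraries gave nearly the same picture. At 17 M the naive libraries held 754, 843 and 703 normalized counts of Htr3b and the SNT libraries 220.3, 7.42 and 11.9. At 25 M the naive libraries held 1239.6, 1333 and 1188 and the SNT libraries 328, 21.7 and 21.9. The order of groups and the place of SNT replicate 1 were those seen at 50 M. The ratio of group means was 0.104 at 17 M and 0.0987 at 25 M. Since the runs share their libraries, these values show the repeatability of sequencing and not that of the injury.

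Depth decided how well the trace in SNT replicates 2 and 3 was measured. At 17 M the value of SNT replicate 2 rested on 7 reads and that of SNT replicate 3 on 13 reads, at 0.967% (0.389% to 1.99%) and 1.55% (0.826% to 2.65%) of the naive mean. Each interval overlapped that of the same library at 50 M. With the reads of the 3 runs summed and scaled anew, SNT replicate 2 held 67 reads and SNT replicate 3 held 81, at 1.61% (1.246% to 2.04%) and 1.69% (1.34% to 2.10%). SNT replicate 1, with 1266 reads over the 3 runs, stood at 26.9% (25.4% to 28.4%). Htr3b was thus detected in every SNT library at every depth.

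Htr3b was more widely spread between SNT than between naive libraries. In naive libraries its coefficient of variation was 9.81% at 50 M, where counting alone would give 2.03%. In SNT libraries it was 143%, where counting alone would give 6.37%. Among the 2605 other genes with a naive mean of 0.5 to 2 times that of Htr3b, the median SD of log2(normalized count + 1) between SNT libraries was 0.15, against 2.26 for Htr3b, and 3 genes (0.115%) reached the SD of Htr3b. Those genes were matched on naive count alone, so a wide spread in SNT goes with the deep fall for which Htr3b was chosen, and is no separate result. Between naive libraries the SD of Htr3b was 0.14, and 16.6% of those genes had one as large.

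The value of Htr3b in SNT replicate 1 was below the naive mean by 74.5% of the difference between that mean and the mean of SNT replicates 2 and 3 at 50 M, by 72.2% at 17 M and by 75.2% at 25 M. Over the 492 strongly falling genes described above, the median of this share was 65.4% (quartiles 60.8% and 69.9%). Over the 58 of them that fell to at most 5% of naive in SNT replicates 2 and 3, it was 67.8% (quartiles 61.9% and 71.2%), and SNT replicate 1 lay between in all 58. Htr3b shared the intermediate place of this library with the other strongly falling genes and lay above their upper quartile in this share.

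Set beside genes of similar naive count, which have similar counting precision, Htr3b lay at the low end. The 2605 genes had naive means of 1202 to 4800 normalized counts at 50 M, and their median log2 ratio of SNT over naive was −0.23 (quartiles −0.60 and 0.14), with 1738 genes lower and 867 higher in SNT. A log2 ratio below −2 was found in 60 of them (2.30%). None was at or below the −3.31 of Htr3b. At 25 M none of 2616 genes was, and at 17 M 1 of 2617. The gene just above Htr3b at 50 M, which carries no symbol in the tables used, was ENSRNOG00000006595 with a log2 ratio of −3.23. The first with a symbol was Kcnh7, a voltage-gated potassium channel of the ether-a-go-go-related family, sixth from the lowest at −2.91. These ranks restate the values by which Htr3b was chosen.

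**Figure D2:**
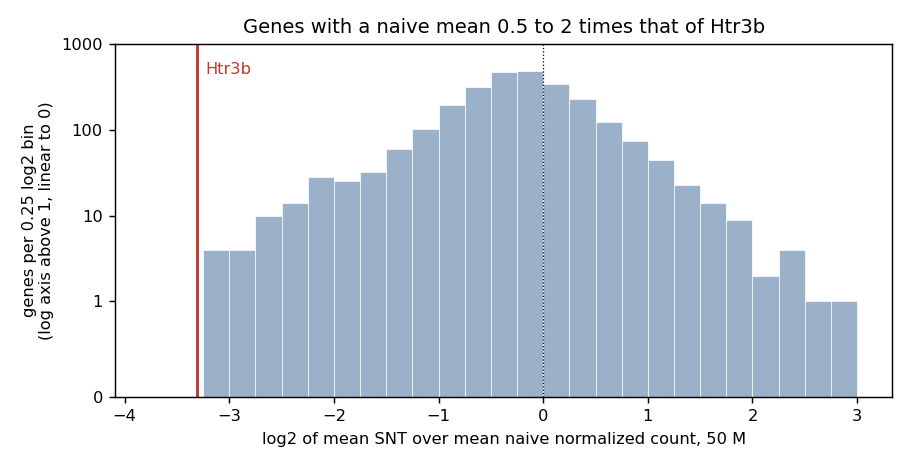
Histogram of the log2 ratio of mean SNT over mean naive normalized count at 50 M for the 2605 genes with a naive mean 0.5 to 2 times that of Htr3b (red line), in bins of 0.25, with gene numbers on an axis that is linear from 0 to 1 and logarithmic above. The lowest of these genes is at −3.23 and the highest at 2.89, and Htr3b at −3.31 is to the left of all bins that hold genes.

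The place of Htr3b in single SNT libraries depended little on the library. In SNT replicate 1, no gene of the 2605 had a smaller share of its naive mean than Htr3b, and the median gene stood at 89.4%. In SNT replicate 2 there were 3 such genes (0.115%), with a median over the 2605 of 81.9%, and in SNT replicate 3 also 3, with a median of 84.2%. Among all 14089 genes whose mean at 50 M reached 20 normalized counts, Htr3b had the ninth lowest ratio of group means. It was rank 7 of 12281 at 17 M and rank 8 of 13121 at 25 M. Since Htr3b was chosen for its fall over these libraries, a low place in each of them is no separate result.

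The other receptors were described from a list of neurotransmitter and ligand-gated receptors that had a symbol, with 6 genes beside Htr3b. Groups were compared with limma on log2(normalized count + 1), with Benjamini-Hochberg adjustment over all tested genes and a false discovery rate (FDR) of 0.1, and the fold changes below are on that scale. At 50 M, 4 of the 6 fell and 2 rose, with a median of −0.49. Over all tested genes the median was 0.01, 29.4% were called lower and 29.2% higher in SNT. Those shares, also used for the lists below, include genes with few reads. Among the 2605 genes of naive count similar to Htr3b, 75.6% were called in either direction. The lists were not matched on count to either set, so a call of a well-covered gene is common here. With libraries scaled to equal totals, 37.5% of all calls were lower in SNT, against 50.2% here, and the median of all genes moved up by 0.15 on the log2 scale. The 4 and 2 calls were also made at 17 M, at 25 M and at 50 M without SNT replicate 1. In that last fit, 32.4% of all tested genes were called lower.

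The receptors for GABA, an inhibitory transmitter, had members that fell. Gabra2, an alpha subunit of the ionotropic GABA-A receptor, held 2811, 2948 and 2504 normalized counts in naive and 1711, 814 and 1074 in SNT libraries. Every SNT library was below every naive one, as in 31.3% of all tested genes. The log2 fold change of Gabra2 was −1.26 (SE 0.25, adjusted p = 0.00788). Gabbr2, the metabotropic GABA-B subunit that couples to the G protein, held 5394, 5874 and 4634 in naive and 2799, 950 and 1231 in SNT libraries. It fell by 1.83 on the log2 scale (SE 0.37, adjusted p = 0.00835), the largest fall of the 6. Gabbr1, its ligand-binding partner, held 13133, 12962 and 12070 in naive and 11572, 8259 and 10349 in SNT libraries. Its change of −0.35 (SE 0.14, adjusted p = 0.0718) passed the threshold here, but in 8 of 15 alternatives it did not, with adjusted p-values from 0.00975 to 0.247. The 2 GABA-B subunits work as a pair, and their log2 fold changes of −1.83 and −0.35 stand side by side here without a test of the difference.

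The 2 listed P2X receptors, cation channels opened by extracellular ATP, rose. P2rx4 held 427, 508 and 491 normalized counts in naive and 643, 1190.5 and 815 in SNT libraries (log2 fold change 0.85, SE 0.22, adjusted p = 0.0174). P2rx7, known from immune and glial cells, held 212, 196 and 251 in naive and 623, 1075 and 975.01 in SNT libraries (log2 fold change 1.99, SE 0.21, adjusted p = 0.00220). In neither did the groups overlap. The share of all tested genes with every SNT library higher was not counted, so nothing is read from this separation. Asic3, an acid-sensing channel of sensory neurons, held 2492, 2640 and 2457 in naive and 2011, 1312 and 1647 in SNT libraries. It fell by 0.63 on the log2 scale (SE 0.15, adjusted p = 0.0138).

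In all 6 of these receptors SNT replicate 1 was nearer to the naive mean than either of the other SNT libraries, as it was for Htr3b. Its share of the naive mean was 52.8% in Gabbr2, 62.1% in Gabra2, 79.5% in Asic3 and 91.0% in Gabbr1, against 26.8% in Htr3b. In SNT replicate 2 the shares of the 4 falling receptors ran from 17.9% in Gabbr2 to 64.9% in Gabbr1, and Htr3b was at 1.76%. The log2 difference of Htr3b, −4.50 on the scale of the fit, lay outside the range of the 6, which was −1.83 to 1.99. These 6 are only the receptors with a symbol. Receptor genes outside the list, among them Htr3a, Chrna3 and Grik1, are also reported by the study as lower after SNT. A deep fall is thus not shown to be particular to Htr3b.

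**Figure D3:**
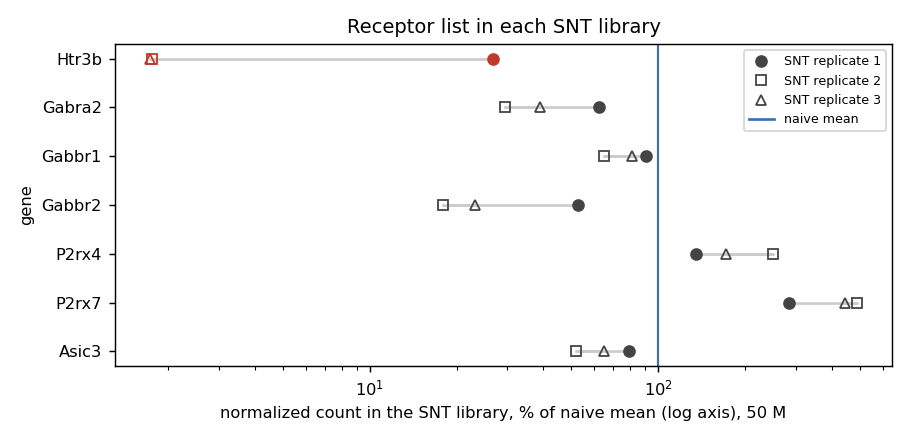
Normalized count in each SNT library at 50 M as a percent of the gene's own naive mean (blue line), on a log axis, for Htr3b (red) and the 6 other listed receptors. Filled circles are SNT replicate 1, open squares replicate 2 and open triangles replicate 3. Htr3b spans 1.73% to 26.8% and in each SNT library is below the other receptors in that library, and P2rx4 and P2rx7 lie above 100% in all 3 libraries.

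Among 19 voltage-gated and other ion channel subunits, 13 fell, 1 rose and 5 did not pass the test at 50 M. Over all tested genes, 29.4% were called lower and 29.2% higher. The median log2 fold change was −1.37 in the list, against 0.01 over all tested genes. The same counts were obtained without SNT replicate 1, where 32.4% of all tested genes were called lower. The lowest were Kcnh7 at −3.54 (SE 0.73), Kcnc1, a fast-activating Kv3 potassium channel, at −3.23 (SE 0.68), and Kcnip3, a calcium-binding partner of Kv4 channels, at −3.03 (SE 0.51), with adjusted p-values of 0.00876, 0.00930 and 0.00527. Kcnh7 held 2087, 2293 and 1665 normalized counts in naive and 625, 74.9 and 105 in SNT libraries. That is the same arrangement as in Htr3b, with SNT replicate 1 at 31.0% of naive and the other 2 libraries at 3.72% and 5.20%. At the other end were Scn3b, a sodium channel beta subunit, which rose by 0.82 (SE 0.13, adjusted p = 0.00458), and Trpm7, a cation channel with a kinase domain, with a log2 fold change of 0.03 (SE 0.06, adjusted p = 0.715).

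The genes with the profile most like that of Htr3b were found by the root mean square of the difference between log2(normalized count + 1) profiles over the 6 libraries at 50 M, after each gene's own naive mean was subtracted, among 14088 other genes whose mean reached 20. The nearest was ENSRNOG00000001572, which carries no symbol in the tables used. It was at a root mean square of 0.13, with 472.0, 520 and 459 normalized counts in naive and 140.3, 9.78 and 7.55 in SNT libraries. The next 2, also without a symbol, were at 0.20 and 0.21, and 23 genes were within 0.5. The median over all genes was 3.44. Such a measure ranks first the genes that fell as far as Htr3b in each library, and the rule had chosen Htr3b by that fall.

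Only 1981 of the 14088 had a symbol, and the nearest of these was Kcnh7, rank 50 with a root mean square of 0.79. Lancl3, a LanC-like protein, followed at 0.91 (rank 64) and Kcnc1 at 1.00 (rank 80). In Lancl3 the SNT libraries held 31.5%, 5.36% and 4.08% of the naive mean and in Kcnc1 35.2%, 6.32% and 4.96%. RGD1304810, Kcnip3, Kcnd3 (a Kv4 channel pore subunit), Kcnab1 (a potassium channel beta subunit), Frmpd1, Scn1a (a sodium channel pore subunit) and Cd55 (a complement regulator on the cell surface, used here as a sensory neuron class gene) completed the 10, from 1.13 for RGD1304810 to 1.47 for Scn1a, with Cd55 just behind. Of these 10 genes, 6 are in the ion channel list, which holds 19 genes and was made with earlier results known. The genes nearer to Htr3b than Kcnh7 carry no symbol, so no theme is read from this count. In each of the 10, SNT replicate 1 was the highest SNT library, at 29.7% to 49.8% of naive, and SNT replicates 2 and 3 were at 3.72% to 11.9%. The genes were picked for nearness to this arrangement, so it is no separate result. The ranks moved with the run: Kcnh7 was rank 40 at 17 M and 60 at 25 M, and RGD1304810 was rank 34 and 18.

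**Figure D4:**
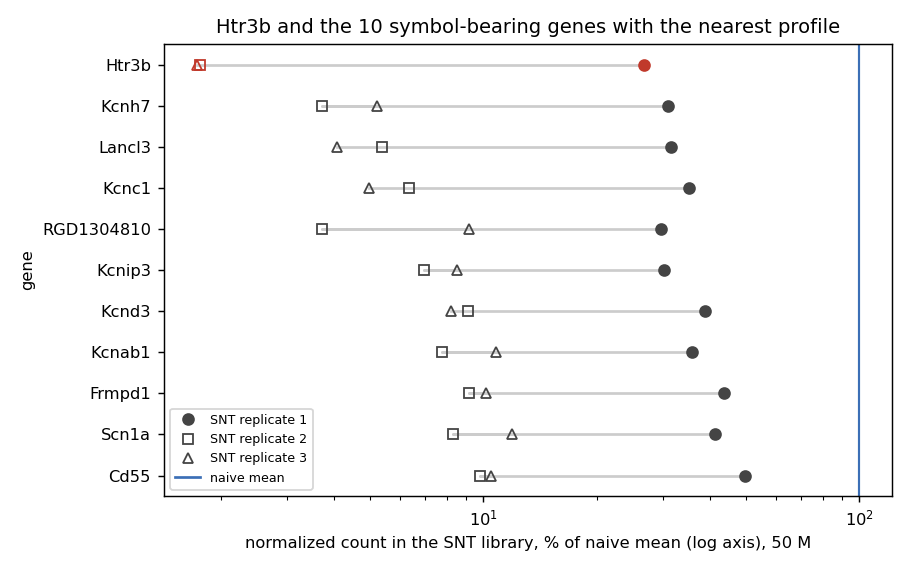
Normalized count in each SNT library at 50 M as a percent of the gene's own naive mean (blue line), on a log axis, for Htr3b (red) and the 10 genes with a symbol whose profile was nearest to it, nearest at the top. Filled circles are SNT replicate 1, which is the highest SNT library in each gene, and open squares and triangles are replicates 2 and 3.

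In a whole ganglion, fewer neurons of a class and less RNA per neuron cannot be told apart, so marker genes of the cell types present are set beside the fall of Htr3b. Of 12 pan-neuronal genes, 7 fell, none rose and 5 did not pass the test at 50 M (limma), where 29.4% of all tested genes were called lower and 29.2% higher. Their median log2 fold change was −0.53. Without SNT replicate 1, 9 fell, and 32.4% of all tested genes were called lower. Their summed level was 235752 to 269606 normalized counts in naive and 143329 to 217698 in SNT libraries, and no member was at 0. The 3 with the highest mean were Stmn2, a stathmin of axons, at 0.16 (SE 0.18, adjusted p = 0.476), Prph, the intermediate filament peripherin, at −0.28 (SE 0.17, adjusted p = 0.203), and Snap25, a synaptic fusion protein, which fell by 2.15 (SE 0.41, adjusted p = 0.00692). In SNT replicates 2 and 3, where Htr3b was at 1.76% and 1.73% of naive, the median pan-neuronal gene was at 56.7% and 69.2%. In SNT replicate 1, where Htr3b was at 26.8%, it was at 83.7%.

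Of 12 sensory neuron class genes, all fell at 50 M, where 29.4% of all tested genes were called lower. The list was made with earlier results of these data known, and the study itself lists Calca, Cd55 and Nefh as lower after SNT. The count is therefore a description only. Their median log2 fold change was −1.88. All fell also without SNT replicate 1, where 32.4% of all tested genes were called lower. At 17 M, 11 fell and 1 did not pass the test. This list shares Asic3 with the receptor list and Scn1a, Scn9a and Kcnc1 with the channel list. Its summed level was 246314 to 286034 in naive and 48687 to 134519 in SNT libraries, and no member was at 0. The 3 with the highest mean were Nefh, the heavy neurofilament of large neurons, at −2.02 (SE 0.41, adjusted p = 0.00817), Calca, the precursor of the peptide CGRP, at −2.37 (SE 0.61, adjusted p = 0.0182), and Scn9a, a sodium channel of nociceptors, at −1.32 (SE 0.28, adjusted p = 0.00971). The median member was at 54.1%, 19.9% and 21.8% of naive in SNT replicates 1, 2 and 3. These neuronal lists moved in the same libraries as Htr3b, and their part in its fall was not tested.

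Lists for other cells are read against the same shares over all tested genes, 29.4% lower and 29.2% higher, which include genes with few reads. Of 9 Schwann and satellite glia genes, 1 fell, 4 rose and 4 did not pass the test (median −0.05), with summed levels of 321125 to 569611 in naive and 385846 to 479021 in SNT libraries. Pmp22, a myelin protein, was at −0.30 (SE 0.27, adjusted p = 0.389), and Mbp, myelin basic protein, at −0.28 (SE 0.27, adjusted p = 0.438). Of 8 leukocyte genes, 6 rose, 1 fell and 1 did not pass the test (median 1.18), and their summed level was 14148 to 14496 in naive and 27353 to 51199 in SNT libraries. Lcp1, an actin-bundling protein of leukocytes, rose by 1.11 (SE 0.10, adjusted p = 0.00134), Gpnmb, a glycoprotein of phagocytes, by 4.75 (SE 0.46, adjusted p = 0.00177), and Lgals3, a galectin, by 1.24 (SE 0.19, adjusted p = 0.00436).

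Of 8 fibroblast and matrix genes, 7 rose and 1 fell (median 1.37), and their summed level was 59434 to 85412 in naive and 120749 to 183856 in SNT libraries. Col3a1, Dcn and Col1a1, which encode collagens and the proteoglycan decorin, rose by 1.26, 1.19 and 1.23 (SE 0.25, 0.24 and 0.23, adjusted p = 0.00742, 0.00792 and 0.00684). No member of the glial, leukocyte or matrix lists was at 0. In SNT replicate 1 the median leukocyte gene stood at 186% and the median matrix gene at 187% of naive, and in SNT replicates 2 and 3 at 267% and 237% and at 314% and 288%. Here too SNT replicate 1 lay between the naive libraries and the other SNT libraries. The part of these cells' RNA in the fall of Htr3b was not tested.

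**Figure D5:**
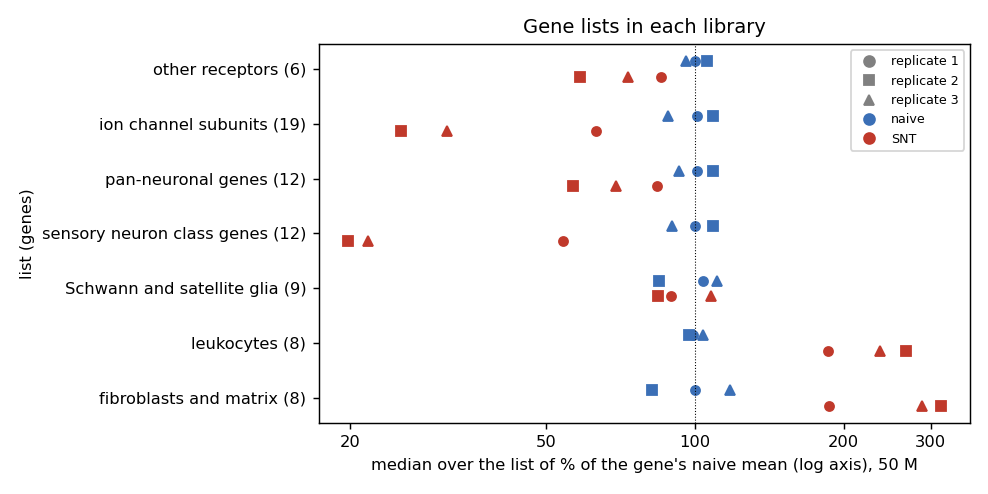
Median, over each gene list, of the normalized count at 50 M as a percent of the gene's own naive mean, on a log axis, in the 3 naive (blue) and 3 SNT (red) libraries, with symbols for the replicate number and gene numbers in brackets. In the 2 lists that fell most, ion channel subunits and sensory neuron class genes, SNT replicate 1 lies at 63.1% and 54.1%, to the right of the other SNT libraries.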

How the data were processed

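Poly(A) RNA of 3 SNT and 3 naive pools of rat L5 DRG was sequenced at 3 depths. The authors aligned 34-base reads to the rat genome Rn5 with Bowtie, allowing up to 1 mismatch, discarded reads that mapped to several places, counted reads on exons of Ensembl genes and divided each library's counts by its DESeq size factor. The kit does not mark strand, so antisense reads would count with the gene. The deposited signal values are these normalized counts, 1 table per depth, and all 18 columns were used. Whole reads were recovered as multiples of each column's smallest step (100% of values whole within 0.001 of a read), with size factors of 0.882 to 1.13.

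Each depth was fitted alone with limma 3.58.1 (R 4.3.3), with a variance trend, on log2(normalized count + 1), two-sided, with Benjamini-Hochberg adjustment over genes with reads in at least 3 of 6 libraries and an FDR of 0.1. The fit was run on simulated counts with equal dispersion in both groups and few changed genes. That setting differs from these data, so it says nothing on error rates here. Alternatives, all run, were pseudocounts of 0.5 and 5, no filter, a mean of at least 10, edgeR 4.0.16 and DESeq2 1.42.0 on the recovered reads, equal totals, a replicate block, leaving out each library and an FDR of 0.05. For Htr3b they were equal totals, summed runs, log2 means, leaving out each library and a band of naive means of 0.8 to 1.25 times its own.

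The gene, the lists and the tests were chosen with earlier results of these data known. Named genes were Htr3b, the receptor list, the 3 lowest and 3 highest ion channels by log2 fold change, the 3 most abundant genes of each cell type list, and the 10 genes with a symbol and 3 of any kind nearest in profile. Of the last 3, 1 is printed by identifier. Some genes that the rule names are not reported here, though the counts over lists include them. Symbols of 1986 genes came from the study's supplementary list for its comparison of intronic with exonic reads, and lists hold only genes in it. For that comparison the study left out overlapping genes and genes with too few intronic reads. The shares over all tested genes were not restricted in this way. Gene lengths were not used, so levels are not compared between genes.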

Additional observations from a re-analysis of the deposited data

How the results depend on the processing

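Leaving out each library in turn gave log2 ratios of Htr3b of −6.31 to −2.72 at 17 M, −5.85 to −2.84 at 25 M and −5.84 to −2.81 at 50 M, in each case lowest without SNT replicate 1. The share of genes of similar naive count at or below Htr3b, 0.0382% at 17 M and 0% at 25 M and 50 M, ranged over the left-out libraries from 0.0367% to 0.115% at 17 M, 0% to 0.115% at 25 M and 0% to 0.115% at 50 M. At 17 M it was 0% with summed runs and 0.113% in the narrower band. Equal totals moved the log2 ratio of Htr3b at 50 M to −3.17 and the median over all genes by 0.15. Under equal totals 2 ion channel genes rose in place of 1. Leaving out single libraries gave 1 to 2 lower glial genes. Genes called at 50 M, 10497 in the fit reported, numbered 8416 to 11346 over all alternatives at an FDR of 0.1, and 9459 with the replicate block. The correlations of same-numbered naive and SNT libraries were 0.05, −0.35 and 0.18. With 3 libraries per group these cannot settle whether the numbers pair the libraries. The labels name no pairing, and the block is given only here. Its one changed call among the named genes was Gabbr1. Of 525 values of named genes under alternatives, 515 kept direction and side of the threshold, 8 fell short of it, all of Gabbr1, and 2 (Trpm7 and Prph) passed it. The value in SNT replicates 2 and 3 is limited by depth, since at 17 M it rests on 7 and 13 reads.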
